A study of Mus musculus with 238 samples.

Results

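The medulla oblongata of old mice given plasma of young mice is described here across all genes, in 7 of the 238 libraries of the series. These are the libraries labelled medulla from the plasma experiment, 3 of mice injected with young mouse plasma (YMP; mice 73, 77 and 81) and 4 of mice injected with PBS, a salt solution without plasma (mice 72, 76, 80 and 84). All 7 mice were C57BL/6JN males aged 19 months, and both groups received the injection behind the eye. The labels do not give the number of injections, the donors' age or the interval to sampling. The other medulla libraries, used for 1 comparison below, came from females of the same strain and age that were either dietary restricted (aDR, 5 mice) or fed ad libitum (AL, 4 mice). RNA was taken from whole homogenised tissue, so every value is a mix of all cell types in the piece dissected, with 1 library per mouse.

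The medulla is the most caudal part of the brain and joins the spinal cord. It holds the nuclei that drive breathing, heart rate and swallowing, groups of serotonin and noradrenaline neurons, inhibitory neurons that use glycine, and long myelinated tracts. Plasma of young animals given to old ones has been studied as a way to alter ageing tissue, and the comparison asks what it changed in the medulla. Because cells were not separated, fewer cells of a type and less RNA per cell cannot be told apart in any value below.

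The labelled region fitted its markers. The summed level of 12 genes of glycinergic transmission ran from 1028 to 1422 CPM (read counts scaled to a library total of 1 M) over the 16 medulla libraries and from 423 to 1315 CPM in pons, against at most 957 CPM in any other region. The 10 forebrain markers summed to 65.0 to 89.9 CPM in medulla and to 1323 to 1574 CPM in motor cortex. The depth of the 7 libraries ran from 3.32 to 32.4 M counts, with the deepest and the shallowest both in the PBS group, and mitochondrial transcripts held 2.52 to 3.35% of counts. No 2 of the 7 libraries were alike enough to be duplicates, as the chi-square per degree of freedom was 2.52 or more for each pair.

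Libraries stood apart in genes that mark position along the hindbrain. PBS mouse 84 had almost no RNA of the more caudally expressed Hox genes, and it had the highest level of the choroid plexus gene Ttr and the cerebellar granule cell gene Cbln3 among the 7 libraries. YMP mouse 81 had the highest level of Hoxa5, Hoxb5 and Hoxb6. YMP mouse 73 had the highest level of serotonin neuron genes, and PBS mouse 72 had the highest level of interferon-induced and meningeal genes. For many of the gene groups below, values without single libraries are also given. The groups and their members were chosen with earlier results of these data known, so their counts are not independent support.

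No gene was called changed in the medulla. Of 13886 genes tested with edgeR's quasi-likelihood test, 0 had an adjusted p under 0.05 (0% called), and the smallest Benjamini-Hochberg adjusted p was 0.438. There were 1300 genes (9.36%) at an unadjusted p under 0.05, 514 higher in YMP (3.7%) and 786 lower (5.66%). Groups did not overlap, meaning that every YMP library lay on the same side of every PBS library, in 478 genes that were higher (3.44%) and 636 that were lower (4.58%). These shares over all genes are to be set beside each list count of the 7 libraries below, also where they are not repeated. With libraries left out, the share of all genes at an unadjusted p under 0.05, either way, moved too. It was 8.9%, 11.8%, 10.3% and 6.59% without PBS mouse 72, 76, 80 and 84 in turn. Without YMP mouse 73, 77 and 81 in turn it was 7.95%, 9.75% and 4.66%. Without YMP mouse 81, 272 of 13984 genes were higher and 380 lower. With PBS mouse 84 also out, 206 of 13950 were higher and 254 lower. With all 7 libraries, the median log2 change over all genes tested was 0.0025, and 50.6% of genes had a change above 0. DESeq2, run on the same counts, called 20 genes, 5 higher and 15 lower, while limma-voom called 0, with 1557 genes at an unadjusted p under 0.05. P-values measure the spread between these 7 animals, and an exact permutation test of 3 against 4 cannot go below 0.0571.

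**Figure D1:**
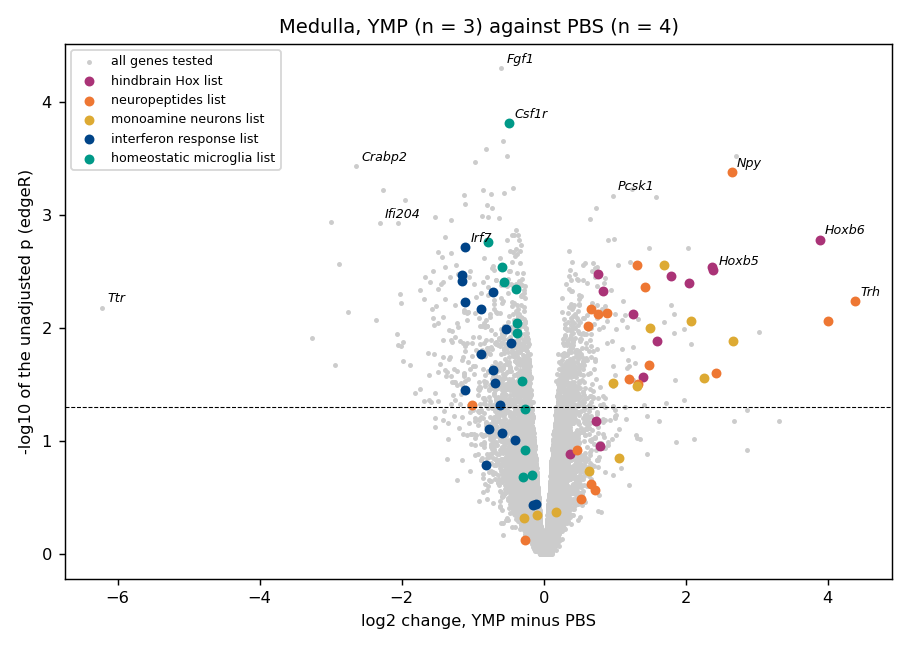
Each point is 1 of the 13886 genes tested in medulla; the x axis is the log2 change (YMP minus PBS) and the y axis is the unadjusted p of edgeR on a -log10 scale, with the dashed line at 0.05. Members of the Hox, neuropeptide and monoamine lists lie mostly to the right and those of the interferon and microglia lists to the left, and no gene passed the adjusted threshold.

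The smallest p among the lower genes belonged to Fgf1, a growth factor of the fibroblast growth factor family. Its level was 392, 349, 349 and 418 CPM in PBS mice 72, 76, 80 and 84, and 241, 267 and 241 CPM in YMP mice 73, 77 and 81. All 3 YMP libraries lay below all 4 PBS libraries, at a log2 change of -0.59 (SE 0.09; edgeR unadjusted p = 5.01e-05, adjusted p = 0.438), and DESeq2 called the gene at an adjusted p of 5e-06. Over the alternative settings its log2 change stayed between -0.64 and -0.52.

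Csf1r, the receptor on which microglia depend for survival, followed. Its level was 107, 98.7, 107 and 115 CPM in the PBS mice and 75.9, 82.4 and 71.8 CPM in the YMP mice. The groups did not overlap, and the log2 change was -0.48 (SE 0.08; edgeR unadjusted p = 0.000153, adjusted p = 0.438; DESeq2 adjusted p = 0.00309).

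Kcng4, a modifying subunit of voltage-gated potassium channels, stood at 128, 122, 137 and 142 CPM in PBS and at 89.5, 105 and 83.9 CPM in YMP, without overlap. Aldh1a1, an enzyme that makes retinoic acid, stood at 407, 337, 452 and 438 CPM in PBS and at 274, 312 and 250 CPM in YMP, again without overlap. The retinoic acid binding protein gene Crabp2 was at 6.59, 1.504, 3.82 and 7.70 CPM in PBS and at 1.39, 0.824 and 0.506 CPM in YMP. Crabp2 passed the filter on low counts only through the PBS libraries, so its place among the lower genes is not read as support. The log2 changes of Kcng4, Aldh1a1 and Crabp2 were -0.51, -0.55 and -2.65, and DESeq2 called all 3. The others of the 12 lower genes with the smallest p were Acss1, a mitochondrial acetyl-CoA synthetase (-0.57), Pm20d1, an enzyme that makes N-acyl amino acids (-0.81), the kinase gene Stk32a (-0.97), the signalling adaptor Gab1 (-0.43), the elastase gene Cela1 (-0.86), Pthlh, which encodes parathyroid hormone-related protein (-2.26), and the leukocyte integrin Itgb2 (-0.74). In all 12 the 3 YMP libraries lay below the 4 PBS libraries.

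Of the higher genes with the smallest p, Pcsk1, which cleaves peptide precursors into active peptides, was at 14.8, 26.2, 20.1 and 12.99 CPM in PBS and at 39.8, 31.7 and 33.4 CPM in YMP. All YMP libraries lay above all PBS libraries (log2 change 0.97, SE 0.20; edgeR unadjusted p = 0.000672, adjusted p = 0.438; DESeq2 adjusted p = 0.0114). Pcsk1n, whose product inhibits that protease, was at 712, 712, 742 and 655 CPM in PBS and at 974, 803 and 942 CPM in YMP. Its log2 change was 0.36, and it is not among the 12 with the smallest p but is 1 of the 5 higher genes that DESeq2 called. Cdkn1a, an inhibitor of the cell cycle, was at 14.9, 15.9, 17.0 and 14.7 CPM in PBS and at 19.9, 24.8 and 32.3 CPM in YMP, without overlap (log2 change 0.73). The others of the 12 were Hoxb5os and Hoxb6 (below), the neuropeptide genes Npy and Tac2, Asb4 (1.24), the plasma membrane calcium pump Atp2b4 (0.65), Tmem252 (0.99), the synaptic fusion protein gene Stx1a (0.91), Ctla2a (2.04) and Ramp3 (1.48), a partner of peptide hormone receptors. Hoxb6 passed the filter on low counts only through the YMP libraries, so it could only be higher. Tac2 also passed only through the YMP libraries, and its place here is not read as support. Ctla2a was the 1 of the 12 whose groups overlapped, since YMP mouse 77 (11.1 CPM) lay below PBS mouse 76 (13.8 CPM).

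Hox genes, transcription factors that set position along the body axis and stay expressed in the adult hindbrain, stood highest of all lists by median. Of 16 genes on the list, 13 passed the filter on low counts, and Hoxa7, Hoxb7 and Hoxb8 did not. All 13 lay higher in YMP, with a median log2 change of 1.40. At an unadjusted p under 0.05 there were 10 (3.7% of all genes were), and 9 were without overlap (3.44% of all genes). Hoxb4 and Hoxb6 passed the filter only through the YMP libraries. Their direction was tied to the filter, and their place in these counts is not read as support. None was called by edgeR.

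Hoxb5 was at 13.3, 15.9, 13.4 and 0.230 CPM in PBS and at 37.4, 32.6 and 93.8 CPM in YMP. The YMP libraries were all higher, with mouse 81 far above the other two and PBS mouse 84, at 2 reads, far below the other PBS mice (log2 change 2.39, SE 0.62; edgeR unadjusted p = 0.00306, adjusted p = 0.438). Hoxa5 had the same order of outlying mice, at 3.82, 4.51, 5.92 and 0.345 CPM in PBS and 8.49, 10.7 and 35.7 CPM in YMP. Hoxb2, which is expressed further forward, varied less, at 7.45, 13.2, 10.4 and 7.58 CPM in PBS and 17.9, 14.2 and 15.0 CPM in YMP, with mouse 84 within the PBS range. Hoxb6 was at 0.4, 0.602, 1.05 and 0.115 CPM in PBS and at 1.08, 2.37 and 18.3 CPM in YMP, so its log2 change of 3.88 had most of its size from mouse 81.

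Hoxb5os, an antisense transcript at chr11:96291024-96306910 on the minus strand (GRCm38, GENCODE M21), spans Hoxb5 (chr11:96303336-96306121, plus strand) and Hoxb6 (chr11:96292476-96301569, plus strand). It was at 1.2, 1.203, 1.15 and 0.115 CPM in PBS and at 3.55, 4.33 and 10.3 CPM in YMP (log2 change 2.70; DESeq2 adjusted p = 0.00309). The libraries carry no strand, so reads of these 3 genes cannot be told apart where they overlap. Hoxa5 lies on another chromosome (chr6:52201754-52204587, minus strand).

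The summed level of the Hox list was 53.5, 122, 99.3 and 42.3 CPM in PBS mice 72, 76, 80 and 84 and 168, 159 and 297 CPM in YMP mice 73, 77 and 81. The 3 YMP libraries lay above the PBS libraries. The 9 medulla libraries of the diet experiment, which had no plasma, ran from 45.5 to 302 CPM and so covered nearly the whole range of both groups. Hoxb5 in those libraries ran from 25.4 to 83.4 CPM in AL and from 0.904 to 100 CPM in aDR. Without PBS mouse 84 and YMP mouse 81 the median log2 change of the Hox list was 0.997, with 8 of 13 members at an unadjusted p under 0.05. Where along the hindbrain each piece was cut is not in the labels, and its part in the result was not tested.

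**Figure D2:**
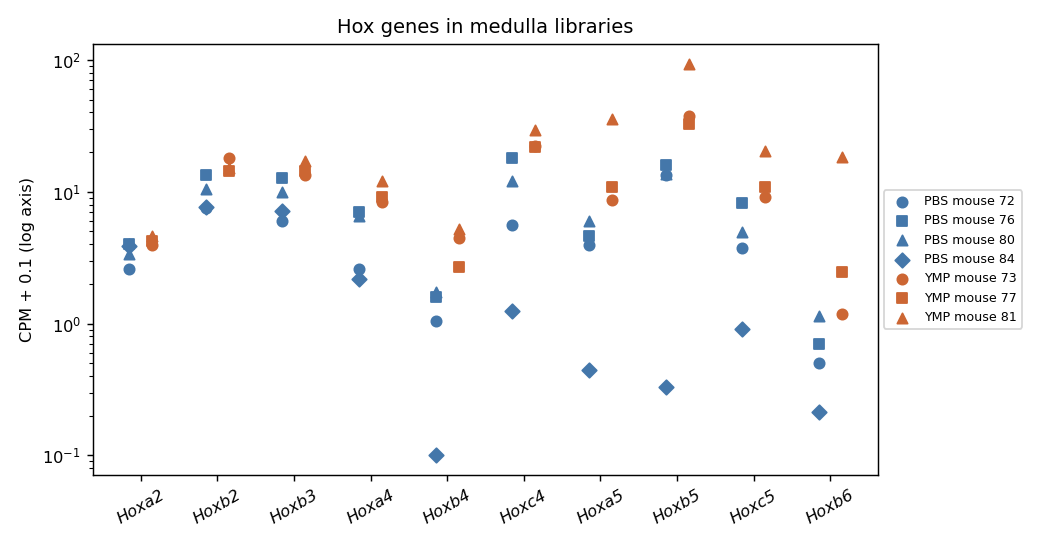
Levels of 10 Hox genes in the 7 medulla libraries, as CPM + 0.1 on a log axis; blue points are PBS mice, orange points YMP mice, 1 shape per mouse within a group. PBS mouse 84 (diamonds) lies lowest from Hoxb4 onward, at 0.230 CPM of Hoxb5, and YMP mouse 81 (orange triangles) lies highest, at 93.8 CPM.

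Neuropeptide genes also lay higher. Of 20 on the list 19 were tested, and Ucn did not pass the filter. There were 17 higher and 2 lower, at a median log2 change of 0.89. At an unadjusted p under 0.05, 13 were higher and 1 lower (3.7% and 5.66% of all genes were), and 6 were higher without overlap (3.44% of all genes). Without YMP mouse 81 and PBS mouse 84 the median was 0.73, with 12 higher at that p.

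Npy, neuropeptide Y, was at 2.80, 8.72, 6.20 and 1.84 CPM in PBS and at 26.2, 10.2 and 42.5 CPM in YMP. All YMP libraries were higher, although YMP mouse 77 exceeded PBS mouse 76 by little (log2 change 2.65, SE 0.52; edgeR unadjusted p = 0.000415, adjusted p = 0.438). Penk, the precursor of enkephalins, was at 109, 358, 223 and 94.2 CPM in PBS and at 561, 370 and 621 CPM in YMP (log2 change 1.43), with the same pair of mice nearest to each other. Cck, cholecystokinin, was at 5.38, 10.5, 12.7 and 4.25 CPM in PBS and at 16.1, 16.8 and 25.3 CPM in YMP (log2 change 1.32), without overlap. Tac2, which encodes neurokinin B, was at 1.11, 0.902, 0.668 and 1.26 CPM in PBS and at 4.32, 2.16 and 2.89 CPM in YMP, a log2 change of 1.59 without overlap. Tac2 passed the filter on low counts only through the YMP libraries, so its direction is not read as support.

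Other peptides varied widely between animals. Trh, thyrotropin-releasing hormone, was at 1.32, 29.5, 0.573 and 0.230 CPM in PBS and at 186, 8.45 and 58.0 CPM in YMP. PBS mouse 76 lay above YMP mouse 77, so the groups overlapped despite a log2 change of 4.38. Pomc, the precursor of melanocortins and beta-endorphin, was at 129 CPM in YMP mouse 73 and at 1.504 to 3.44 CPM in the other 6 libraries, and its log2 change of 4.01 became -0.22 without that mouse.

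Monoamine neuron genes gave 10 of 12 tested members higher in YMP, 7 of them at an unadjusted p under 0.05 but 0 without overlap, at a median log2 change of 1.19. Tph2, the enzyme that makes serotonin in neurons, was at 5.57, 74.9, 7.44 and 33.6 CPM in PBS and at 268, 30.6 and 71.4 CPM in YMP. Mouse 73 stood far above all others, and the other 2 YMP mice lay within the PBS range. The serotonin transporter gene Slc6a4 was at 1.75, 16.8, 1.15 and 8.62 CPM in PBS and 78.1, 8.76 and 17.4 CPM in YMP. Mouse 73 again stood far above, mouse 77 lay within the PBS range and mouse 81 just above it. Fev, a transcription factor of serotonin neurons, Gch1, which supplies the cofactor for monoamine synthesis, and Slc18a2, the vesicular monoamine transporter, had log2 changes of 2.08, 1.70 and 1.5, each highest in mouse 73. Without mouse 73 the median was 0.85, and 1 member higher and 1 lower were left at an unadjusted p under 0.05. The summed level of the list was 185 to 329 CPM in PBS, 217 to 816 CPM in YMP and 169 to 629 CPM in the diet experiment's medulla libraries. How much of the raphe nuclei each piece held was not tested.

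Cholinergic motor neuron genes had a median log2 change of -0.23 over 9 tested members, 7 of them lower. None was at an unadjusted p under 0.05, and leaving out any 1 mouse gave medians of -0.63 to 0.19. Glycinergic genes had a median log2 change of 0.03 over 11 tested members, with 0 higher and 1 lower at an unadjusted p under 0.05. Genes of synaptic vesicle release had a median of 0.16 over 18, with 4 higher at that p and 0 lower (2 higher, at a median of 0.09, without PBS mouse 84 and YMP mouse 81, and a median of 0.04 without YMP mouse 77). Stx1a, the syntaxin of the presynaptic fusion machinery, was at 11.1, 13.8, 16.4 and 8.50 CPM in PBS and at 28.4, 19.0 and 22.4 CPM in YMP, without overlap. Cplx2, complexin 2, Unc13a, which primes vesicles, and Syt1, the calcium sensor of release, had log2 changes of 0.58, 0.40 and 0.50 with overlapping groups. Of 20 voltage-gated ion channels 3 were higher without overlap, the sodium channel gene Scn2a (0.42) and the calcium channel genes Cacna1e (0.56) and Cacna1a (0.31), against a list median of 0.05. Without PBS mouse 80, 1 member of the list was higher at an unadjusted p under 0.05, and without PBS mouse 76, 5 were.

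**Figure D3:**
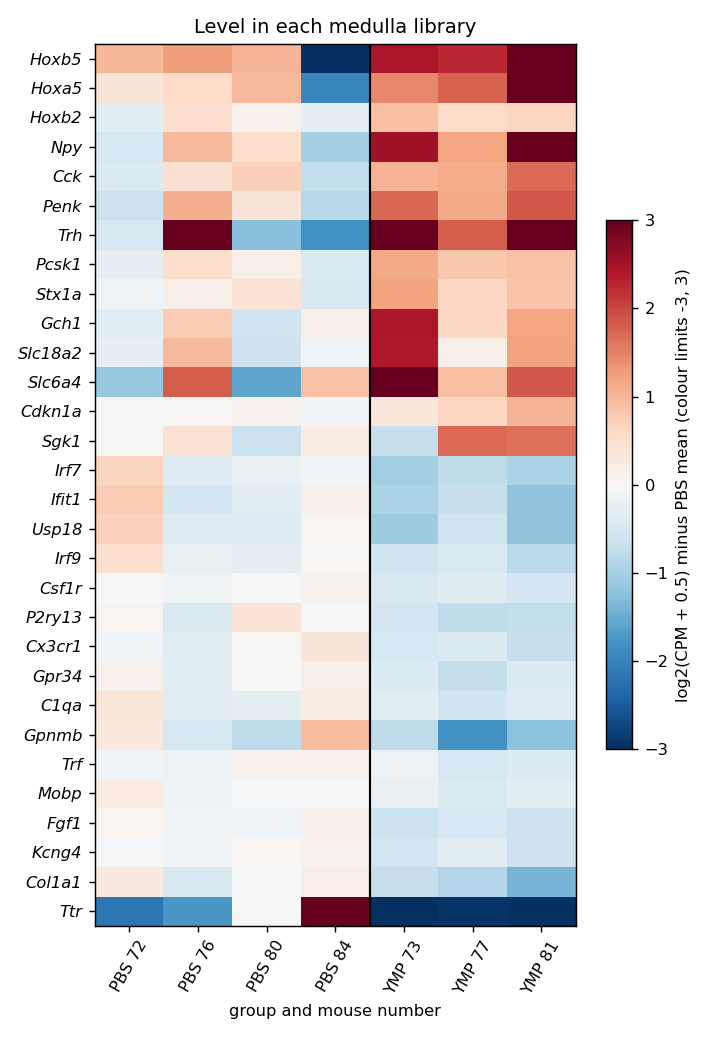
Colour gives log2(CPM + 0.5) of each of 30 genes in each medulla library, minus the mean of the 4 PBS libraries, with PBS mice left of the black line and YMP mice right of it. Hoxb5 is near absent in PBS mouse 84, Slc6a4 is highest in YMP mouse 73, the interferon genes Irf7, Ifit1 and Usp18 are highest in PBS mouse 72, and Csf1r and Fgf1 are lower in all 3 YMP libraries.

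Interferon-induced genes, which cells switch on as a defence against viruses when interferon binds its receptor, lay lower in YMP. Of 20 genes on the list 19 were tested, and Mx1 was not. All 19 lay lower, 13 at an unadjusted p under 0.05 (5.66% of all genes were) and 8 without overlap (4.58% of all genes), at a median log2 change of -0.71. None was called by edgeR or by DESeq2.

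Many such genes carry an interferon-stimulated response element, and the upstream sequence of the genes was read for it. The motif searched was TTTC, then NN (any 2 bases), then TTTC, on both strands, in the 250 bases before the start site given by RefSeq (GRCm38.p6). It was found in 5 of the 9 interferon genes that lay lower at an unadjusted p under 0.05 and have a promoter entry (55.6%), and in 8 of the 15 tested members with an entry (53.3%). It was found in 338 of 10895 tested genes with an entry (3.1%) and in 936 of 27025 genes in all (3.46%). A match is a description of the letters and not a bound site. The 5 genes are shown because they lay lower together and carry the motif in the same window. They are written 5′ to 3′ in the direction of the gene, with the matches in the printed stretch in capitals. The 2 matches overlap in Gbp3 and in Oas1a, and in Oas1a they stand on the opposite strand. Ifit3 has another match in the 250 bases, outside the stretch printed.
Ifit1 (chr19:34640784-34640833, plus strand): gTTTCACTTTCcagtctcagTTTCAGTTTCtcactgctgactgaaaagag
Ifit3 (chr19:34583387-34583436, plus strand): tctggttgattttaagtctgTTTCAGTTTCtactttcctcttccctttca
Rsad2 (chr12:26456543-26456592, minus strand): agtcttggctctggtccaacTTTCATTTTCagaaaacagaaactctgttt
Gbp3 (chr3:142559985-142560034, plus strand): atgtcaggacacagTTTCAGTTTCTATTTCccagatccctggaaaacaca
Oas1a (chr5:120907526-120907559, minus strand): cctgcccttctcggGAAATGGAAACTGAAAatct

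Irf7, a transcription factor that amplifies interferon production, was at 14.2, 6.62, 7.63 and 8.28 CPM in PBS and at 4.01, 4.95 and 4.34 CPM in YMP. All YMP libraries were lower, and PBS mouse 72 was the highest (log2 change -1.11, SE 0.27; edgeR unadjusted p = 0.00191, adjusted p = 0.438). Ifit1, which binds foreign RNA, was at 24.1, 9.33, 11.0 and 15.7 CPM in PBS and at 7.10, 8.45 and 5.86 CPM in YMP (log2 change -1.15), with mouse 72 again the highest. Irf9, a DNA-binding factor of the interferon response, was at 24.8, 15.0, 14.6 and 18.2 CPM in PBS and at 11.6, 12.7 and 9.91 CPM in YMP (log2 change -0.71), without overlap. Usp18, which dampens interferon receptor signalling, had a log2 change of -1.16 without overlap.

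The other 4 genes whose upstream sequence is shown were named for that sequence, after their values were seen. Ifit3 was at 56.8, 19.2, 25.1 and 33.8 CPM in PBS and at 18.8, 18.1 and 12.6 CPM in YMP. The antiviral enzyme gene Rsad2 had a log2 change of -0.89 and the GTPase gene Gbp3 one of -0.68, both without overlap. Oas1a, a sensor of double-stranded RNA, had a log2 change of -1.11 with overlap. The Ifit and Oas genes have near-identical neighbours, so their counts are uncertain.

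The summed level of the interferon list was 524, 291, 291 and 361 CPM in PBS and 261, 259 and 231 CPM in YMP. Every YMP library lay below every PBS library, and the gap to PBS mice 76 and 80 was small beside the excess of mouse 72. Without mouse 72 the median log2 change was -0.38, with 9 members at an unadjusted p under 0.05, and without PBS mouse 84 and YMP mouse 81 it was -0.67, also with 9. In the diet experiment's medulla libraries the sum ran from 243 to 422 CPM.

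Microglia genes lay lower as a list. All 12 homeostatic microglia genes were tested and lower, 8 at an unadjusted p under 0.05 and 7 without overlap, at a median log2 change of -0.38. Leaving out any 1 mouse gave medians of -0.42 to -0.33. Their summed level was 616, 511, 588 and 658 CPM in PBS and 473, 449 and 434 CPM in YMP, without overlap.

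Cx3cr1, the fractalkine receptor, was at 63.4, 52.3, 68.4 and 86.8 CPM in PBS and at 46.3, 49.4 and 41.4 CPM in YMP (log2 change -0.58). The purinergic receptor gene P2ry13 (-0.79) and the lysophosphatidylserine receptor gene Gpr34 (-0.56) were also without overlap. Of 15 tested genes of disease-associated microglia, a state seen near amyloid and in ageing, 14 lay lower, 7 at an unadjusted p under 0.05, at a median of -0.34. That count was 4 without PBS mouse 72 or YMP mouse 77, and 11 without PBS mouse 76. Gpnmb, a glycoprotein of lipid-laden phagocytes, was at 22.1, 12.3, 10.2 and 34.8 CPM in PBS and at 10.2, 4.64 and 7.23 CPM in YMP, with the lowest PBS and highest YMP values nearly equal. Cst7, a cysteine protease inhibitor, Itgax, the CD11c integrin, and Axl, a receptor for dying cells, had log2 changes of -1.21, -1.13 and -0.34.

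All 12 tested complement genes lay lower, 7 at an unadjusted p under 0.05 and 2 without overlap, with a median of -0.57. C1qa, a chain of the C1q recognition protein made by microglia, was at 101, 62.9, 65.3 and 91.8 CPM in PBS and at 61.6, 51.3 and 59.5 CPM in YMP, with PBS mice 72 and 84 well above the rest (log2 change -0.50). C1s1, the C1s protease, had a log2 change of -1.75 at levels under 3 CPM. Cd59a, a membrane inhibitor of complement, had a log2 change of -0.39 with overlapping groups. Without PBS mouse 72 the list's median was -0.40, with 3 members at an unadjusted p under 0.05. The count was also 3 without PBS mouse 84, and it was 2 without YMP mouse 77. All 11 tested MHC class I genes lay lower, 2 at that p (H2-D1 at -0.29 and the peptide transporter Tap1 at -0.55), with a median of -0.27 that was -0.11 without mouse 72. None was lower at that p without mouse 72 or without YMP mouse 81, and 5 were without PBS mouse 80.

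Beside the immune lists, markers of the meninges lay in the same direction. All 16 meningeal fibroblast genes lay lower, 9 at an unadjusted p under 0.05 and 2 without overlap, at a median of -0.93. Their summed level was 3732, 1123, 1306 and 1730 CPM in PBS and 1600, 1297 and 1134 CPM in YMP, so mouse 72 alone lay outside the range of the other 6 libraries by much. Without it the median was -0.37, with 4 members at that p. Without YMP mouse 81 it was -0.79, with 2, and without YMP mouse 77 it was -0.84, with 5. Col1a1, a collagen of fibroblasts, was at 12.4, 7.22, 10.2 and 11.7 CPM in PBS and at 6.17, 5.36 and 3.54 CPM in YMP (log2 change -1.13, called by DESeq2). Bmp6, a bone morphogenetic protein, had a log2 change of -1.30 and was also called by DESeq2, and Lum, lumican, one of -1.28 with overlap. Slc22a6, an organic anion transporter, was at 10.3 CPM in mouse 72 and at most 1.203 CPM elsewhere. The part of meningeal tissue in the immune values was not tested.

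PBS mouse 84 had the highest summed level of choroid plexus genes. Ttr, transthyretin, the main secreted protein of the choroid plexus, was at 3.72, 5.11, 17.7 and 291 CPM in PBS and at 0.463, 1.96 and 0.723 CPM in YMP. The groups did not overlap, and mouse 84 was far above the rest (log2 change -6.22, and -2.77 at its smallest over the alternatives). Only 7 of the 15 choroid plexus genes passed the filter, so no count over them is read as support. Their median was -0.88. At an unadjusted p under 0.05, 4 were lower and 1, the prolactin receptor gene Prlr, was higher. Without mouse 84 the median was -0.40, with 4 lower and 0 higher at that p. The summed level of the list was 572, 531, 605 and 1053 CPM in PBS and 480, 479 and 473 CPM in YMP, so the groups did not overlap with or without mouse 84. In YMP, Ttr was at most 1.96 CPM, so the sum there rested on other members. The sum is not read as the amount of choroid plexus tissue. Kcnj13, a potassium channel of that epithelium, was at 8.06 and 7.93 CPM in PBS mice 72 and 84 and at most 1.81 CPM elsewhere. Cbln3, of cerebellar granule cells, was at 25.7 CPM in mouse 84 and at most 4.10 CPM elsewhere, and the median of 13 tested cerebellar genes was -0.61, or -0.14 without that mouse. Itpr1, the calcium release channel abundant in Purkinje cells, had a log2 change of -0.48 without overlap, and Zic2 one of -1.98 with overlap. The 8 tested blood genes lay lower, at a median of -0.70 with 0 of them at an unadjusted p under 0.05, and 4 of them were at that p without PBS mouse 72. Leaving out any 1 mouse gave medians of -1.14 to -0.33.

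Myelin genes lay lower by a small amount. All 15 were tested and lower, 10 at an unadjusted p under 0.05 and 5 without overlap, at a median of -0.26. Trf, transferrin, which oligodendrocytes make in the brain, was at 3383, 3192, 3950 and 3947 CPM in PBS and at 3190, 2490 and 2706 CPM in YMP. YMP mouse 73 was just under the lowest PBS mouse (log2 change -0.37, SE 0.12; edgeR unadjusted p = 0.00895, adjusted p = 0.447). The myelin proteins Mobp (-0.33) and Mag (-0.24) were without overlap, and Cnp (-0.26) overlapped. The count at an unadjusted p under 0.05 was 1 without YMP mouse 77 (median -0.19), 2 without YMP mouse 81 (median -0.23) and 1 without PBS mouse 84 and YMP mouse 81 (median -0.22). Over all genes, 663, 380 and 254 were lower at that p in these settings, against 786 with all libraries. The 15 genes of oligodendrocyte precursors and differentiation were all lower too, 4 at that p, with a median of -0.27, and Bcas1, of early myelinating cells, was at -0.28. That count was 1 without PBS mouse 72, PBS mouse 84 or YMP mouse 81, and 2 without YMP mouse 77.

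Astrocyte genes had a median of -0.15, with 4 of 12 lower at an unadjusted p under 0.05. The count was 0 without YMP mouse 81, 1 without PBS mouse 84 or YMP mouse 73, and 2 without PBS mouse 72 or 80. Aqp4, the water channel of astrocyte endfeet, was at 337, 249, 258 and 512 CPM in PBS and at 243, 214 and 249 CPM in YMP, and Sox9 had a log2 change of -0.27. Of 20 endothelial genes 19 were lower, 3 at that p, with Ocln, occludin of tight junctions, at -0.76 without overlap. The endothelial median of -0.26 was -0.40 with 9 at that p without PBS mouse 80, -0.14 with 1 without YMP mouse 81, -0.27 with 1 without PBS mouse 72, and -0.03 with 0 without PBS mouse 84 and YMP mouse 81.

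**Figure D4:**
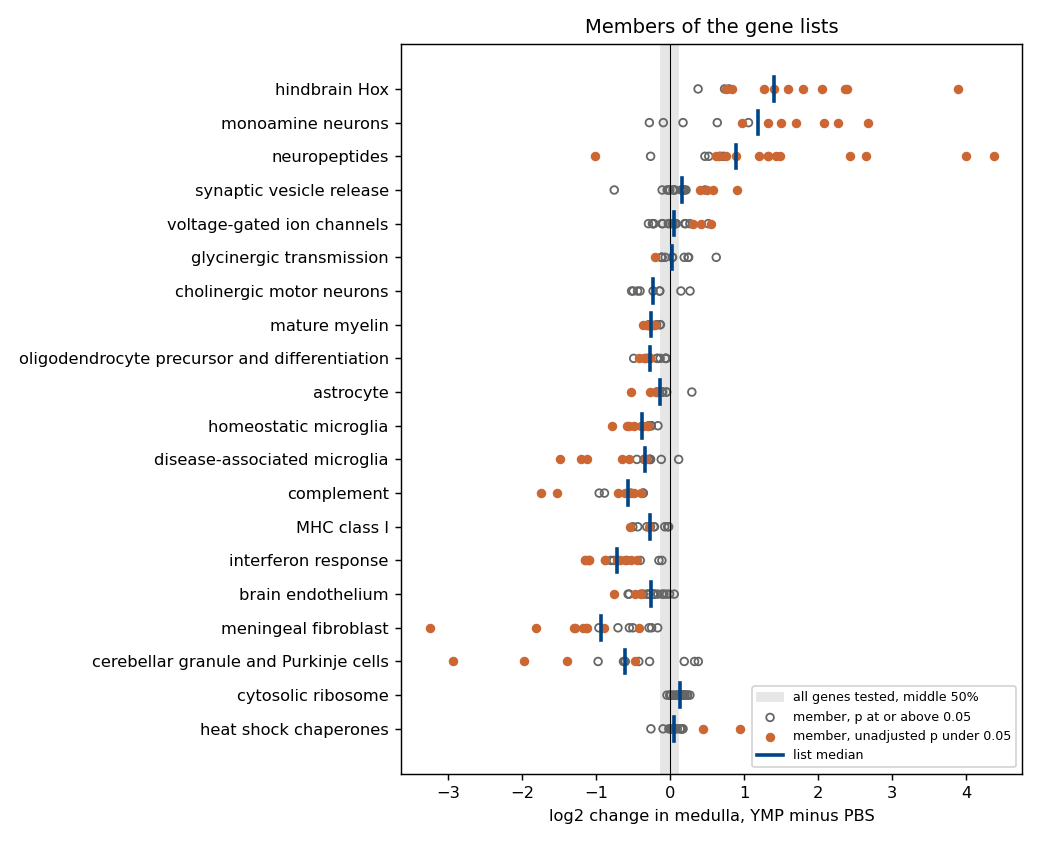
Log2 change in medulla (YMP minus PBS) of each tested member of 20 gene lists; filled points have an unadjusted p under 0.05, blue bars are list medians, and the grey band holds the middle 50% of all genes tested. Medians run from 1.40 for the Hox list to -0.93 for the meningeal list, while the ribosome and heat shock medians lie at 0.13 and 0.05.

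Genes that respond to neuronal activity or stress hormones gave members in both directions. Of 16 tested immediate early genes, 4 were higher and 1 lower at an unadjusted p under 0.05 (3.7% and 5.66% of all genes were), with Egr4 at 1.22, Junb at 0.30, Nr4a1 at 0.49 and Arc at -0.21. The count of higher genes was 1 without PBS mouse 80 or YMP mouse 81. Of 20 glucocorticoid-responsive genes, 5 were higher and 1 lower at that p, at a list median of 0.13. There the count of higher genes ran from 2 without YMP mouse 81 to 9 without YMP mouse 73. Sgk1, a kinase induced by glucocorticoids, was at 117, 157, 74.0 and 137 CPM in PBS and at 72.7, 381 and 371 CPM in YMP. Mice 77 and 81 were both high and mouse 73 was below every PBS mouse. Nfkbia, the inhibitor of NF-kappaB (0.46), and Zbtb16 (0.60) overlapped. Of 19 tested heat shock genes the inducible chaperone gene Hspa1a (0.94) and the co-chaperone gene Dnajb1 (0.44) were higher at that p, while 5 were without YMP mouse 77 and 1 was without YMP mouse 81.

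The 27 cytosolic ribosome genes had a median of 0.13, the 26 proteasome genes 0.05 and the 28 nuclear genes of the respiratory chain 0.02, with 0 members of these lists at an unadjusted p under 0.05. Without YMP mouse 77, 14 ribosome genes were higher at that p (median 0.24), as were 3 proteasome genes and 1 respiratory chain gene, and without PBS mouse 72, 8 ribosome genes were. Over all genes, 709 of 14071 were higher at that p without YMP mouse 77 and 516 of 13726 without PBS mouse 72. The 20 clock genes had a median of -0.09, with 1 lower at that p, 5 without PBS mouse 76 and 0 without YMP mouse 81.

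The other regions of the same mice were used to ask whether the medulla differed from them. For each mouse, the value compared was its medulla level minus its own term in a linear fit of mouse and region over the other brain regions. The mice had 10 to 14 of these 14 regions, PBS mouse 72 having 10, PBS mouse 76 12 and YMP mouse 73 13, so the reference does not rest on the same regions in every mouse. With limma, 0 of 13863 genes were called (0%), and 765 (5.52%) were at an unadjusted p under 0.05, 438 higher (3.16%) and 327 lower (2.36%). When the libraries were fitted in edgeR with the mouse as a block, 10 genes were called, among them Npy (adjusted p = 0.0109), Trh (adjusted p = 0.0109), Pthlh (adjusted p = 0.0109), Pomc (adjusted p = 0.0246), Tph2 (adjusted p = 0.0436), Ctla2a (adjusted p = 0.00204) and Crtam (adjusted p = 0.0436). Several of these are genes in which mouse 73 stood apart. That edgeR fit takes its spread from all 98 plasma libraries, so regions of a mouse act as replicates there. The medulla change itself rests on 3 YMP and 4 PBS mice.

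Prlr, the prolactin receptor, had the smallest p of the limma test. Its log2 change was 0.50 in medulla and -0.96 over the other regions, a difference of 1.46 (SE 0.15; limma unadjusted p = 1.55e-05, adjusted p = 0.215). Prlr is on the choroid plexus list. Fitted region by region in edgeR, that list had a median log2 change of -8.21 over 15 members in corpus callosum. In the region labelled SVZ its median was -6.19 over 15 members. The part of choroid plexus tissue in the Prlr value of the other regions was not tested. The interferon-inducible gene Ifi204 differed by -1.57, Slfn9 by -1.13 and Hgf, hepatocyte growth factor, by -1.03, each lower in medulla and near 0 elsewhere. Csf1r had a log2 change of -0.47 in medulla and of 0.02 over the other regions (difference -0.49, limma adjusted p = 0.807). Fgf1 differed by -0.50 and Pcsk1 by 1.02, while the medulla value of Kcng4 was -0.51 against -0.35 elsewhere.

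Of the 19 interferon genes 10 were lower in medulla relative to the other regions at an unadjusted p under 0.05 (2.36% of all genes were), with a median difference of -0.62 and a median change over the other regions of 0.04. Of 12 homeostatic microglia genes 5 were lower, with a median difference of -0.29. Of 19 neuropeptide genes 5 were higher (3.16% of all genes were), with a median difference of 0.91. Of 15 myelin genes 0 were lower, with a median difference of -0.08.

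Fitted region by region, the interferon list had medians of -0.71 in medulla, -0.55 in caudate putamen and -0.53 in cerebellum, and of 0.54 in choroid plexus and 0.53 in thalamus. These come from the same mice, so regions are not independent. The neuropeptide list had medians of 0.89 in medulla and 0.79 in the region labelled SVZ. For monoamine genes the medulla median of 1.19, over 12 tested members, stood beside 0.38 in thalamus over 6 and 0.25 in pons over 10. These medians are therefore not over the same genes.

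**Figure D5:**
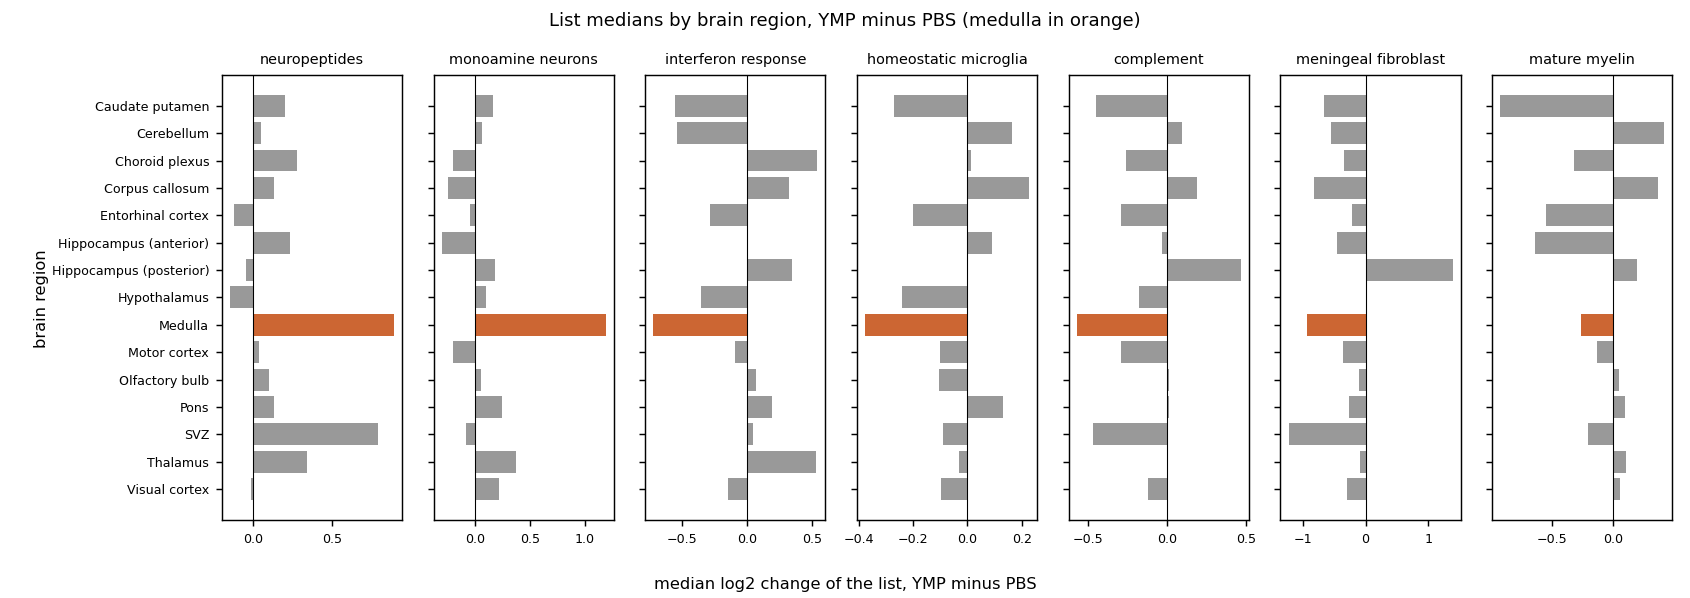
Each panel gives the median log2 change of 1 gene list (YMP minus PBS) in the 15 brain regions, with medulla in orange. Panels have their own x axis, and for some lists the members tested differ between regions. The medulla bar is the furthest from 0 for the neuropeptide (0.89), monoamine (1.19), interferon (-0.71), microglia (-0.38) and complement (-0.57) lists and not for the meningeal and myelin lists.

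Pons, the neighbouring hindbrain region, had libraries from 3 YMP and 3 PBS mice. With limma on the difference between the regions of each mouse, 0 of 13053 genes were called, and 604 (4.63%) were at an unadjusted p under 0.05. Ncmap, a protein of peripheral myelin, had a log2 change of 0.65 in medulla and -0.20 in pons (limma adjusted p = 0.952), and Gna15, a G protein subunit of blood cells, values of -0.49 and 0.63. Hox genes had a median log2 change of -0.33 in pons, where Hoxb5 was at 57.5, 0.970 and 36.5 CPM in YMP mice 73, 77 and 81 and at 29.97 to 39.96 CPM in PBS. Without the library of mouse 77 the median of the Hox list in pons was 0.40, and 0 of 12996 genes tested there were called. The near absence of Hoxb5 in the pons library of YMP mouse 77 was opposite in group to that in the medulla library of PBS mouse 84. Whether these 2 pieces were cut at the labelled level was not tested. The comparison of medulla with pons also gave 0 calls without mouse 77 and without mouse 84, with 684 and 396 genes at an unadjusted p under 0.05. Irf7 differed by -0.86 between the regions (limma adjusted p = 0.952).

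The medulla was also the tissue in which the 2 interventions were set side by side. Experiment, sex and animals differ together, so the interventions and the sex of the mice cannot be told apart. In edgeR over 16 medulla libraries, 0 of 14283 genes had a plasma change that differed from the diet change at an adjusted p under 0.05, and 1416 (9.91%) were at an unadjusted p under 0.05. DESeq2 called 13. Stk32a had a log2 change of -0.97 with plasma and 0.80 with diet (edgeR adjusted p = 0.184), Etnppl, an astrocyte enzyme of phospholipid breakdown, values of -0.39 and 0.76, and Plin4, a lipid droplet protein gene, values of 0.34 and 2.76. Srrm3, a neuronal splicing factor gene, had values of 0.27 and -0.34, and Stxbp3 values of -0.35 and 0.33. Across 13797 genes the plasma and diet changes had a Pearson correlation of 0.0267 and a Spearman correlation of -0.0507, given as a description, since genes are not independent replicates. The interferon list was lower with both, at medians of -0.71 and -0.43, with 9 of 19 members lower at an unadjusted p under 0.05 in the diet comparison (3.51% of all genes were).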

How the data were processed

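RNA of homogenised tissue was turned into Smart-Seq2 cDNA and unstranded Nextera XT libraries, per the labels' protocols. The values are whole-number read counts per gene as deposited by the authors in 1 table of 21076 genes and 238 libraries, without normalisation. Trim Galore 0.3.7, STAR 2.5.3a, DESeq2 and the GRCm38 build are named in the submitters' processing notes, with no roles, and the counting program and annotation are not given in the sources used here. There were 0 columns left unused.

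Libraries were grouped by the labelled region and treatment, with the mouse number as replicate. Medulla YMP (3) and PBS (4) were compared with edgeR 4.0.16 in R 4.3.3 (filterByExpr at its minimum count 10 and total 15, TMM, quasi-likelihood test, Benjamini-Hochberg, adjusted p under 0.05). CPM of single genes use TMM-scaled totals, and summed list levels, ranges over other groups and the pons values use plain totals. A list is described by its counts and its median, without a test. Differences from other regions or from pons were tested with limma 3.58.1 on 1 log2 CPM difference per mouse (prior count 2), and differences from the diet experiment with edgeR. The mouse number marks the animal, so it pairs regions and never treatments. Deviations of medulla libraries from their group mean correlated at 0.0898 with those of other regions of the same mouse, over 91 pairs, and at -0.0342 with those of other mice of the group.

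Genes named are the 12 with the smallest p and the 5 with the largest change at an unadjusted p under 0.05 without overlap and with a mean of at least 1 CPM, each way, up to 4 per list, and 5 per test of a difference. Predicted genes are counted and not named, and not every gene that the rule admits is named. Pcsk1n, Tph2 and Pomc were added after their values were seen. Members and lists were chosen with earlier results of these data known. Scripts were tested on simulated data. Promoter sequences and start sites are from RefSeq, positions from GENCODE M21. The alternatives were DESeq2 1.42.0, limma-voom, RLE factors, plain totals, other filters (none, or a minimum count of 50), robust empirical Bayes, all 16 medulla libraries, and each library left out.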

Additional observations from a re-analysis of the deposited data

Results flagged for a closer look

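In the PBS group of 4, 10 of 150 values examined had 1 library far from the other 3 by Dixon's 95% criterion, where chance would give about 7.5, as about 1 in 20 groups is marked by chance. Of the 10, 6 were in PBS mouse 84, 3 in mouse 76 and 1 in mouse 72. Groups of 3, such as YMP, were not examined. In mouse 84, Hoxb5 was at 0.2299 CPM against 13.3 to 15.9 CPM in the other PBS mice, and its antisense gene Hoxb5os was at 0.1149 CPM against 1.15 to 1.203 CPM. The same library had 291 CPM of Ttr against 3.72 to 17.7 CPM, and 25.74 CPM of Cbln3 against 1.14 to 4.10 CPM. Its choroid plexus list summed to 1053 CPM against 530 to 605 CPM, and its list of neurotrophins and receptors to 1087 CPM against 896 to 918 CPM. In mouse 76, Trh was at 29.48 CPM against 0.230 to 1.32 CPM, Egr4 at 2.407 CPM against 1.14 to 1.24 CPM, and the monoamine list at 328.9 CPM against 185 to 209 CPM. In mouse 72, Slc22a6 was at 10.34 CPM against 1.03 to 1.203 CPM. The cause of these values was not tested.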

How the results depend on the processing

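The count of genes called in medulla was 0 under limma-voom, RLE factors, plain totals, both other filters, robust empirical Bayes, the fit over all 16 medulla libraries and each library left out (0 to 0), and 20 under DESeq2. The cause of that difference between tools was not tested. The count at an unadjusted p under 0.05 ran from 652 to 1634 when 1 library was left out. It was 652 (4.66%) without YMP mouse 81 and 460 (3.3%) without PBS mouse 84 and YMP mouse 81, an alternative chosen after seeing the data, against 1300 with all libraries. The share of these genes that were higher was 39.5%, and 51.7% without YMP mouse 77. Plain totals moved the median of all genes to 0.01.

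Genes that differed between medulla and the other regions numbered 10 with the mouse as a replicate block in edgeR and 10 with no replicate block, and 0 in the other alternatives, each mouse left out included (0 to 0). In the edgeR fits with 10 calls each, regions of a mouse act as replicates. The fit that took differences within mice pairs regions by animal. For medulla against pons the count was 0 in all alternatives, without a replicate block included (0 to 0 with a mouse left out). For plasma against diet it was 13 under DESeq2, 6 without PBS mouse 76 and 1 without aDR mouse 65, and it ran from 0 to 6 with a library left out. No paired analysis was possible because mouse numbers differ between treatments, within medulla. The median of the Hox list in pons, -0.33, was 0.40 without the pons library of YMP mouse 77, an alternative also chosen after seeing the data. Of the genes named, Pomc reversed, at -0.22 without YMP mouse 73, in a range up to 4.605 with another library left out. Genes at 1 CPM rest on about 3 to 32 reads per library, and differences there were often not detectable at this depth.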
